A study of Homo sapiens with 12 samples.

Results

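Splicing factors and heterogeneous nuclear ribonucleoproteins (hnRNPs) were followed at the transcript level in human melanoma cells whose RAF kinases had been inhibited. The genes were taken by symbol, and the choice was made with earlier results of these data known. They comprise the SR proteins (SRSF), the Sm and other small nuclear ribonucleoprotein (snRNP) proteins (SNRP), and the SF3A and SF3B subunits. U2AF, the PRPF proteins, the LSM proteins and the hnRNPs make up the rest. The genes were 69 of the 11963 with a probe set of 1 symbol on the array, and the brightest probe set stood for each gene. Of these, 68 were bright enough to be tested. The exception was HNRNPA3P1, a pseudogene, whose signal was under 85.7, the level of the filter, on all 12 arrays. A further 12 symbols that fit the choice, SRSF2, SRSF9, SNRPN and HNRNPH2 among them, lie only on probe sets shared with other symbols and were not analysed here.

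All cells carried BRAFV600E, a constantly active form of the kinase BRAF, which signals through MEK to ERK. Each of the melanoma lines Malme3M, SkMel-1, SkMel-5, SkMel-19 and SkMel-28 was treated for 8 h with 250 nM PLX4032 (vemurafenib, an inhibitor of RAF kinases) or with 0.1% DMSO, its solvent. SkMel-19 and Malme3M were also treated with 1000 nM PLX4032. Every line and dose had 1 Affymetrix array, so the lines were the replicates, 5 for the lower dose and 2 for the higher.

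Introns are removed from precursor mRNA by the spliceosome, which is assembled from the U1, U2, U4, U5 and U6 snRNPs. Each of U1, U2, U4 and U5 carries a ring of Sm proteins, and U6 carries a ring of LSM proteins. SR proteins bind exonic sequences and mostly help splice sites to be used, while hnRNPs coat nascent transcripts and often oppose that use. Several SR protein and hnRNP genes adjust their own transcript levels through exons that send the transcript to decay.

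Treatment with 250 nM PLX4032 lowered the ERK output genes in every line. The median log2 change of DUSP6, SPRY2, SPRY4, ETV4, ETV5, CCND1 and MYC was -3.65 in SkMel-1, -2.01 in SkMel-5, -2.57 in SkMel-28, -3.42 in SkMel-19 and -3.44 in Malme3M. All 7 melanocyte lineage markers on the array were above the filter, whereas 2 of 8 fibroblast, 1 of 5 blood, 2 of 6 epithelial and 0 of 4 endothelial markers were. Control signals of 3′ over 5′ probe sets, which report on RNA integrity, changed at 250 nM by -0.01 ± 0.07 for GAPDH and by -0.02 ± 0.08 for ACTB (log2, mean ± SD, n = 5 lines). Median signals per array lay between 102.5 and 130.4.

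At 250 nM the changes in the splicing factor group ran mostly downwards and were small. Of the 68 genes tested, 17 fell and 1 rose at a limma adjusted p under 0.05, beside 28.3% of all 7178 genes tested, 13.1% that fell and 15.2% that rose. The 18 genes made up 26.5% of the group, a share close to that background, while the falls made up 25% and the single rise 1.47%. The median log2 change of the group was -0.13, against 0.03 for all genes tested. A value below 0 was found for 49 of 68, or 72.1%, whereas 44.3% of all genes tested were below 0. Values were lower in all 5 lines for 19 genes (27.9%, beside 16.6% of all genes tested) and higher in all 5 for 3 genes (4.41%, beside 20.9%). Only 4 of the falls reached 1.5-fold, those of SRSF7, HNRNPF, SNRPD1 and U2AF1. RNA came from whole cultures on arrays brought to a common scale, so fewer cells of a kind and less RNA per cell cannot be told apart.

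The count was lower when SkMel-1, SkMel-28, SkMel-19 or Malme3M was left out, as was the share of all genes. Without SkMel-5 it was higher, with 18 falls and 3 rises, beside a lower share of 25.6% of all genes tested. Without SkMel-1 it was 11 of 68 beside 19.8% of all genes tested, and without SkMel-19 it was also 11, beside 17.9%. SRSF7, HNRNPF, SNRPD1, SNRPA1, SNRPB2, HNRNPAB, PRPF4 and SF3B4, 8 of the 18, passed in every alternative setting that kept the cell line as a block and in which they were tested.

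**Figure D1:**
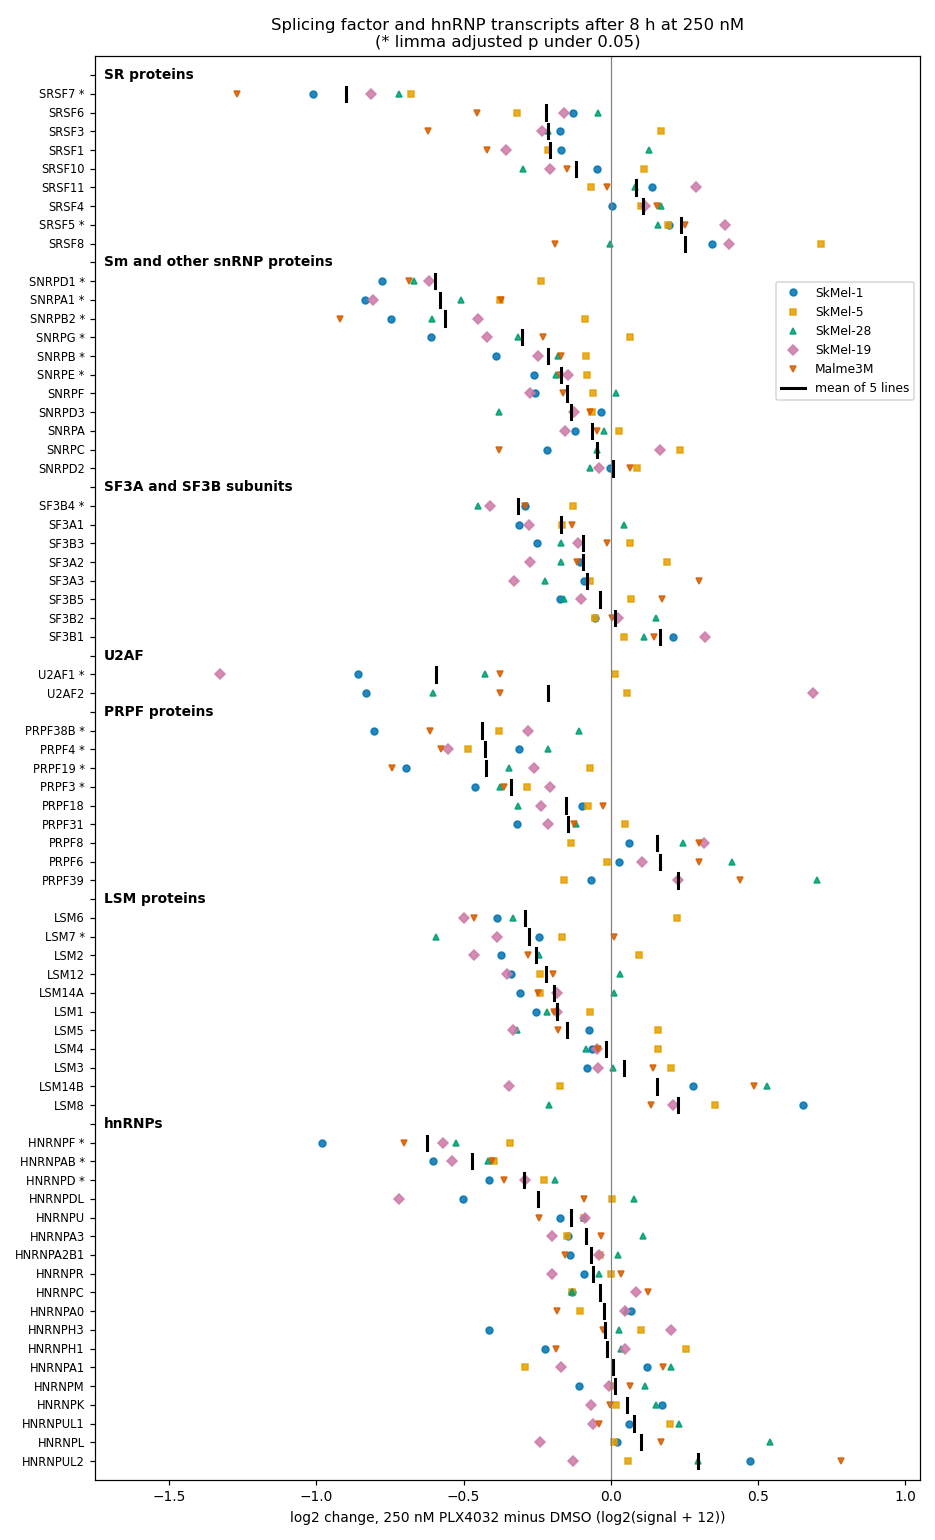
Log2 change of each of the 68 genes tested at 250 nM PLX4032 against DMSO, grouped by family, with 1 marker per cell line, a black bar for the mean of 5 lines and an asterisk where the limma adjusted p was under 0.05. Most bars lie left of 0, from -0.90 for SRSF7, and the markers of SRSF7, HNRNPF, HNRNPAB, SNRPA1 and SNRPD1 all lie left of it.

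Promoters of 5 of the genes that fell or rose are shown with the ETS motif marked. ETS-family transcription factors, among them the ERK-induced ETV4 and ETV5, bind sites with the core GGAA. Sequences are on the strand of the gene, and capitals mark the ETS match CCGGAAG or its reverse complement CTTCCGG. For SRSF7, SNRPA1, SNRPB2 and SRSF5 they run from 250 bases before to 50 bases after the gene's start in RefSeq on GRCh38.p14. The window of HNRNPF lies inside the gene, which starts at 43409186 in RefSeq.
SRSF7, chr2:38751445-38751744, minus strand: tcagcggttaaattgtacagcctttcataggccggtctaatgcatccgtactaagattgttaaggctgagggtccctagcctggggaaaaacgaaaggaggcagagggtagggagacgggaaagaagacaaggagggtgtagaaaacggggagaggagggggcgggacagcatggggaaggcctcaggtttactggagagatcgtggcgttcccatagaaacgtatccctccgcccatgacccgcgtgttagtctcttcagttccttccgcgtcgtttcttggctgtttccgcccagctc
SNRPA1, chr15:101295199-101295498, minus strand: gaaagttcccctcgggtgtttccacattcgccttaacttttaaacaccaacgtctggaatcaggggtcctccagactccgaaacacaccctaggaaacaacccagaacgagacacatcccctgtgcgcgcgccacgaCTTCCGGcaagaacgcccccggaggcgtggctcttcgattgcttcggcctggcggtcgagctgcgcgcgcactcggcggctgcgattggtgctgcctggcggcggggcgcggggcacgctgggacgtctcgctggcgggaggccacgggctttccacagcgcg
SNRPB2, chr20:16729776-16730075, plus strand: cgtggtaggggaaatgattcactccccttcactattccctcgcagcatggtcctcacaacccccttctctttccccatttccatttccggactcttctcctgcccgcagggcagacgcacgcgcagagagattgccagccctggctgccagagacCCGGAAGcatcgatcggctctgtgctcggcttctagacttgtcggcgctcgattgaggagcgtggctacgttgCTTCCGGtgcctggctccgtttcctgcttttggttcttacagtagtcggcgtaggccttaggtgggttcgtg
HNRNPF, chr10:43408808-43409107, minus strand: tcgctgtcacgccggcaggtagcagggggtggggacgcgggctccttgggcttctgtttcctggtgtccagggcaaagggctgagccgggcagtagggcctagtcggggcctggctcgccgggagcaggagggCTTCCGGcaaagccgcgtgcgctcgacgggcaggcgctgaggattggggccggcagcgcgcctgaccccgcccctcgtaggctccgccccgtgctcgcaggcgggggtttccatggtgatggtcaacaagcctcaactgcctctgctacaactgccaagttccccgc
SRSF5, chr14:69766892-69767191, plus strand: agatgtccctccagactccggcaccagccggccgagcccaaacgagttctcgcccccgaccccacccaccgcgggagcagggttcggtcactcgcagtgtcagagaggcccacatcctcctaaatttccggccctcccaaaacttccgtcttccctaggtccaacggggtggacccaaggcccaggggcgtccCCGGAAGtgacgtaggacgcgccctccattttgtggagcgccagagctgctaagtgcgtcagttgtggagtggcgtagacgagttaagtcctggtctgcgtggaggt

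SNRPB2 held 2 matches, SNRPA1, HNRNPF and SRSF5 held 1 each, and the window of SRSF7 held none. HNRNPAB, LSM7, PRPF4, PRPF19, PRPF38B and U2AF1, which also fell and are not shown, held none either. Promoters were found for 60 of the 68 genes tested. The ETS letters were present in 8 of 15 promoters of genes that fell (53.3%) and in 13 of 45 promoters of the other genes of the group (28.9%), beside 20.6% of the 6058 promoters of genes tested and 10.7% of all 27305 promoters. The genes that fell with a match were SNRPA1, SNRPB, SNRPB2, SNRPE, SNRPG, SF3B4, HNRNPD and HNRNPF, 6 of which encode proteins of the snRNPs, with SF3B4 counted as a part of the U2 snRNP. Matches were also found for SNRPC, SNRPD2, SF3A1, SF3A2, SF3A3, SF3B2, LSM5, LSM8 and PRPF6, genes of snRNP proteins that did not pass at 250 nM. The other genes of the group with a match were PRPF18, SRSF4 and U2AF2, which did not pass, and SRSF5, which rose. The windows of SNRPG and HNRNPF lay wholly inside the gene as placed in RefSeq, and that of SNRPE almost wholly. The E-box CACGTG, the site of MYC and related factors, was found in 1 of 15 and in 6 of 45, beside 10.9% of promoters of genes tested. The CCAAT box CCAAT was in 5 of 15 and 21 of 45, beside 38.4% of promoters of genes tested, and the GC box GGGCGG in 8 of 15 and 29 of 45, beside 72.6%. The TATA box TATAAA was in 2 of 15 (13.3%) and 4 of 45 (8.89%), beside 5.07%, so that its share in the genes that fell was above that of all genes tested, as was the ETS share. Both strands were searched, and matches of different motifs were counted separately even where they overlapped. A match describes letters in this window and is not evidence of binding. Whether any motif relates to the changes was not tested, and the motifs were chosen with earlier results of these data known.

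SRSF7, an SR protein also known as 9G8 that takes part in splicing and in mRNA export, had the largest fall of the whole group. In Malme3M, SkMel-1, SkMel-5, SkMel-19 and SkMel-28, the order used for every list of 5 values here, its signal was 1119, 1607, 2447, 1828 and 2587 at 250 nM, against 2716, 3248, 3920.3, 3226 and 4263 with DMSO. Every treated array was below every DMSO array, and the fall was 1.86-fold (log2 fold change -0.90, SE 0.09, limma adjusted p = 0.000399, n = 5 lines). The fall was deepest in Malme3M (-1.27 on the log2 scale) and smallest in SkMel-5 (-0.68).

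The opposite direction was seen for SRSF5, another SR protein and the only gene of the group that rose. Its signal was 3004, 2188, 2628, 3659 and 2631 at 250 nM, against 2519, 1907, 2297, 2794 and 2354 with DMSO. The rise was present in all 5 lines but was 1.18-fold in size and the groups overlapped (log2 fold change 0.24, SE 0.06, limma adjusted p = 0.0187). Without SkMel-19 the adjusted p was 0.0708 and without Malme3M it was 0.0553.

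The other 7 SR protein genes did not pass, with log2 changes between -0.22 and 0.25. SRSF1, the founding SR protein and an oncogene in some tumours, changed by -0.21 (SE 0.08, limma adjusted p = 0.0909), with a lower signal in 4 of 5 lines and a higher one in SkMel-28. Without SkMel-28 its change was -0.29 (limma adjusted p = 0.0317). SRSF3, the smallest SR protein, changed by -0.21 (SE 0.10, limma adjusted p = 0.12) and was higher only in SkMel-5. Without SkMel-5 its change was -0.31 (limma adjusted p = 0.0302). SRSF6 was lower in all 5 lines but by little (log2 fold change -0.22, SE 0.08, limma adjusted p = 0.0579), whereas SRSF8 ranged from -0.19 in Malme3M to 0.71 in SkMel-5.

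The snRNP proteins were the family with the most falls, 6 of 11 genes, beside 13.1% of all genes tested. The family median was -0.17 on the log2 scale. SNRPD1 encodes SmD1, a member of the Sm ring. Its signal was 1433, 1406, 2389.9, 1543 and 1864 at 250 nM, against 2312, 2416, 2816, 2372 and 2971 with DMSO. All 5 lines were lower, SkMel-5 by the least (log2 fold change -0.60, SE 0.08, limma adjusted p = 0.00169, 1.51-fold lower). The groups overlapped, since the SkMel-5 array at 250 nM lay above the DMSO arrays of Malme3M and SkMel-19. The other ring members that fell did so by less. SNRPG, encoding SmG, changed by -0.30 (SE 0.09, limma adjusted p = 0.0308) and was lower in 4 lines and slightly higher in SkMel-5. SNRPB, which encodes SmB and SmB′, changed by -0.21 (SE 0.05, limma adjusted p = 0.0177) in the same direction in all 5 lines. SNRPE, encoding SmE, changed by -0.17 (SE 0.05, limma adjusted p = 0.0361), again lower in every line.

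The remaining Sm ring genes did not pass the test. SNRPF changed by -0.15 (SE 0.06, limma adjusted p = 0.114), SNRPD3 by -0.13 (SE 0.06, limma adjusted p = 0.129) and SNRPD2 by 0.01 (SE 0.04, limma adjusted p = 0.907). SNRPD2, encoding SmD2, had 7513, 6217, 6514, 7432 and 7486 at 250 nM, against 7182, 6231, 6119.7, 7642 and 7866 with DMSO, and none of its lines moved by more than 0.1. With 4 lines in place of 5, SNRPG, SNRPE and SNRPB missed the threshold in some fits at similar log2 changes. When SkMel-1, SkMel-28, SkMel-19 or Malme3M was left out, SNRPG changed by between -0.226 and -0.321, with an adjusted p between 0.0578 and 0.0970. SNRPE changed by between -0.147 and -0.176 without any of the same 4 lines, with an adjusted p between 0.0745 and 0.0946. SNRPB changed by -0.206 without SkMel-19, with an adjusted p of 0.0575.

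The transcripts of U2-A′ and U2-B″, a pair of U2 snRNP proteins that bind U2 RNA together, were lower. SNRPA1, encoding U2-A′, had 1365, 1582, 1318, 1144 and 1678 at 250 nM, against 1769.9, 2834, 1714, 2011 and 2392 with DMSO. The 2 groups did not overlap (log2 fold change -0.58, SE 0.09, limma adjusted p = 0.00253, 1.49-fold lower). SNRPB2, encoding U2-B″, had 3525, 1853, 5608, 4054 and 5472 at 250 nM, against 6685, 3119.6, 5957, 5539.9 and 8337 with DMSO. It was lower in all 5 lines, with a change of -0.09 in SkMel-5 and of -0.92 in Malme3M (log2 fold change -0.56, SE 0.10, limma adjusted p = 0.00535). The groups overlapped, and the DMSO arrays alone ran from 3119.6 in SkMel-1 to 8337 in SkMel-28. The genes for proteins specific to the U1 snRNP did not pass. SNRPA (U1-A) changed by -0.06 (SE 0.07, limma adjusted p = 0.489) and SNRPC (U1-C) by -0.05 (SE 0.09, limma adjusted p = 0.733), and SNRNP70, whose protein is the third of these and whose symbol lies outside the rule, by -0.03 (SE 0.08, limma adjusted p = 0.817).

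U2AF recognises the 3′ splice site, its small subunit U2AF1 (U2AF35) binding the AG dinucleotide and its large subunit U2AF2 (U2AF65) the pyrimidine tract. U2AF1 had 1710.1, 1112, 2839.9, 1657 and 1822 at 250 nM, against 2222, 2028, 2814, 4171 and 2457 with DMSO. The change ran from -1.33 in SkMel-19 to 0.01 in SkMel-5, and the mean passed the test (log2 fold change -0.60, SE 0.16, limma adjusted p = 0.0248, 1.51-fold lower). Without SkMel-1 the adjusted p was 0.0750, without SkMel-28 it was 0.0531 and without SkMel-19 it was 0.0622. U2AF2 had 1233, 1102, 1132, 1692 and 1569 at 250 nM, against 1604, 1969, 1089.7, 1047 and 2390.2 with DMSO. It was lower in SkMel-1, SkMel-28 and Malme3M, close to level in SkMel-5 and higher in SkMel-19, and the mean did not pass (log2 fold change -0.21, SE 0.19, limma adjusted p = 0.419). In SkMel-19 the subunits moved in opposite directions, U2AF1 by -1.33 and U2AF2 by 0.69, each on 1 array per dose.

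SF3A and SF3B are parts of the U2 snRNP that hold the branch point. Of their 8 genes 1 fell and 0 rose, beside 13.1% and 15.2% of all genes tested. SF3B4 encodes SF3b49, which contacts RNA upstream of the branch point. Its signal was 1556, 1534, 2755, 1795 and 1146 at 250 nM, against 1908, 1879.7, 3011, 2387 and 1571 with DMSO, lower in every line (log2 fold change -0.31, SE 0.07, limma adjusted p = 0.0112). SF3B1, the branch point subunit that is mutated in a share of uveal melanomas and blood cancers, pointed the other way. It had 4660.0, 4125, 3653, 3987 and 4423 at 250 nM, against 4212, 3563, 3544, 3189 and 4093 with DMSO, and was higher in all 5 lines without passing the test (log2 fold change 0.17, SE 0.06, limma adjusted p = 0.0549). Without SkMel-5 it passed (0.20, limma adjusted p = 0.0488). The other 6 had log2 changes between -0.17 for SF3A1 and 0.01 for SF3B2.

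Among the PRPF genes 4 of 9 fell and none rose, beside 13.1% and 15.2% of all genes tested. PRPF3 and PRPF4 encode U4/U6 snRNP proteins that bind each other. PRPF4 had 771, 352, 1268, 743 and 786 at 250 nM, against 1157, 440.1, 1779, 1095 and 914 with DMSO, and was lower in all 5 lines (log2 fold change -0.43, SE 0.08, limma adjusted p = 0.0069). PRPF3 was lower in all 5 as well, with changes between -0.21 and -0.46 (log2 fold change -0.34, SE 0.09, limma adjusted p = 0.02). Its adjusted p was 0.0564 without SkMel-1, 0.0554 without SkMel-28 and 0.0528 without Malme3M.

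PRPF19, the ubiquitin ligase of the spliceosome that gives the Prp19 complex its name, had 533, 1095, 2102, 2241 and 1182 at 250 nM, against 899.8, 1782, 2210.4, 2685 and 1507 with DMSO. It was lower in all 5 lines, most in Malme3M and least in SkMel-5 (log2 fold change -0.42, SE 0.11, limma adjusted p = 0.0179), and the adjusted p was 0.0565 without SkMel-1 and 0.0525 without Malme3M. PRPF38B changed by -0.44 (SE 0.12, limma adjusted p = 0.0281), lower in all 5 lines, from low signals of 87.5 to 365 at 250 nM and 162 to 395 with DMSO. Its adjusted p lay between 0.0540 and 0.0827 when SkMel-1, SkMel-5, SkMel-19 or Malme3M was left out.

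PRPF8, the large U5 protein at the centre of the spliceosome, had 3242, 2229.8, 1781, 3237 and 3224 at 250 nM, against 2635, 2134, 1956, 2595 and 2721 with DMSO. It was higher in 4 of 5 lines without passing (log2 fold change 0.16, SE 0.08, limma adjusted p = 0.159), and without SkMel-5 its change was 0.23 (limma adjusted p = 0.0458). PRPF6 and PRPF31, bridging proteins of the tri-snRNP, changed by 0.17 (SE 0.08, limma adjusted p = 0.163) and -0.15 (SE 0.08, limma adjusted p = 0.186). PRPF18, a second-step factor, changed by -0.15 (SE 0.09, limma adjusted p = 0.246), and PRPF39, a U1-associated protein, by 0.23 (SE 0.13, limma adjusted p = 0.23), with its values spread from -0.16 in SkMel-5 to 0.70 in SkMel-28.

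The LSM family had a median of -0.18 on the log2 scale. Of its 11 genes 1 fell and 0 rose, beside 13.1% and 15.2% of all genes tested. LSM7, a member of the LSM ring, had 1344, 1600.3, 1351, 1523 and 1372 at 250 nM, against 1333, 1898, 1519, 1996 and 2077 with DMSO. It was lower in 4 lines and level in Malme3M (log2 fold change -0.28, SE 0.09, limma adjusted p = 0.0491), and its adjusted p lay between 0.0662 and 0.156 when SkMel-1, SkMel-5, SkMel-28 or SkMel-19 was left out. LSM2 and LSM6, other members of the ring, changed by -0.25 (SE 0.09, limma adjusted p = 0.0711) and -0.29 (SE 0.12, limma adjusted p = 0.0907), each lower in every line but SkMel-5. LSM1, which replaces LSM8 in the cytoplasmic ring that acts in mRNA decay, was lower in all 5 lines by small amounts (log2 fold change -0.18, SE 0.07, limma adjusted p = 0.0635). LSM8, the member that keeps the ring in the nucleus, had 2332, 2174, 2529.5, 1206 and 1519 at 250 nM, against 2119.7, 1377, 1976, 1039 and 1761 with DMSO. It was higher in 4 of 5 lines and lower in SkMel-28, without passing (log2 fold change 0.23, SE 0.11, limma adjusted p = 0.149). LSM14A and LSM14B, cytoplasmic relatives found in P-bodies, changed by -0.19 (SE 0.08, limma adjusted p = 0.102) and 0.16 (SE 0.15, limma adjusted p = 0.451).

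The hnRNPs, the largest family, had the median nearest to 0 (-0.03). Of the 18 genes tested 3 fell and 0 rose, beside 13.1% and 15.2% of all genes tested. HNRNPF encodes an hnRNP that binds runs of G. It had 698, 652, 946, 1084 and 646 at 250 nM, against 1144, 1298, 1201, 1616 and 936 with DMSO. All 5 lines were lower, SkMel-1 by the most (-0.98), with some overlap between the groups (log2 fold change -0.62, SE 0.10, limma adjusted p = 0.00262, 1.54-fold lower). HNRNPAB, a relative of hnRNP D, moved by a similar amount in every line, between -0.40 and -0.60. Its signal was 3930.2, 4881, 4640.1, 4469.9 and 5357 at 250 nM, against 5200.3, 7416, 6109, 6505 and 7149 with DMSO (log2 fold change -0.47, SE 0.05, limma adjusted p = 0.000512).

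HNRNPD encodes AUF1, which binds AU-rich elements and affects mRNA decay. It had 3219, 2080.1, 2621, 3569.7 and 3648 at 250 nM, against 4141, 2773, 3066, 4372 and 4165 with DMSO, lower in all 5 lines (log2 fold change -0.30, SE 0.06, limma adjusted p = 0.00624). HNRNPDL, its close relative, changed by -0.72 in SkMel-19 and -0.50 in SkMel-1, was near 0 in SkMel-5, SkMel-28 and Malme3M, and did not pass (log2 fold change -0.25, SE 0.12, limma adjusted p = 0.14).

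The abundant core hnRNPs did not pass. HNRNPA1, a splicing repressor, had 2382, 1804, 1496, 1969 and 1832 at 250 nM, against 2104, 1656, 1832, 2216 and 1590.1 with DMSO, with lines in both directions (log2 fold change 0.01, SE 0.09, limma adjusted p = 0.95). The direction of this near-zero value is not settled, since it was below 0 when arrays were centred on their median and under 5 other settings. HNRNPA2B1, which also binds small RNAs, changed by -0.07 (SE 0.05, limma adjusted p = 0.333). HNRNPC, which keeps U2AF2 off cryptic sites, changed by -0.04 (SE 0.06, limma adjusted p = 0.674), and HNRNPK, a binder of C-rich stretches, by 0.05 (SE 0.05, limma adjusted p = 0.45). HNRNPU, a nuclear scaffold protein, was lower in all 5 lines by small amounts and did not pass on this probe set (log2 fold change -0.14, SE 0.05, limma adjusted p = 0.0681). The 15 hnRNP genes that did not pass had log2 changes between -0.25 and 0.30.

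**Figure D2:**
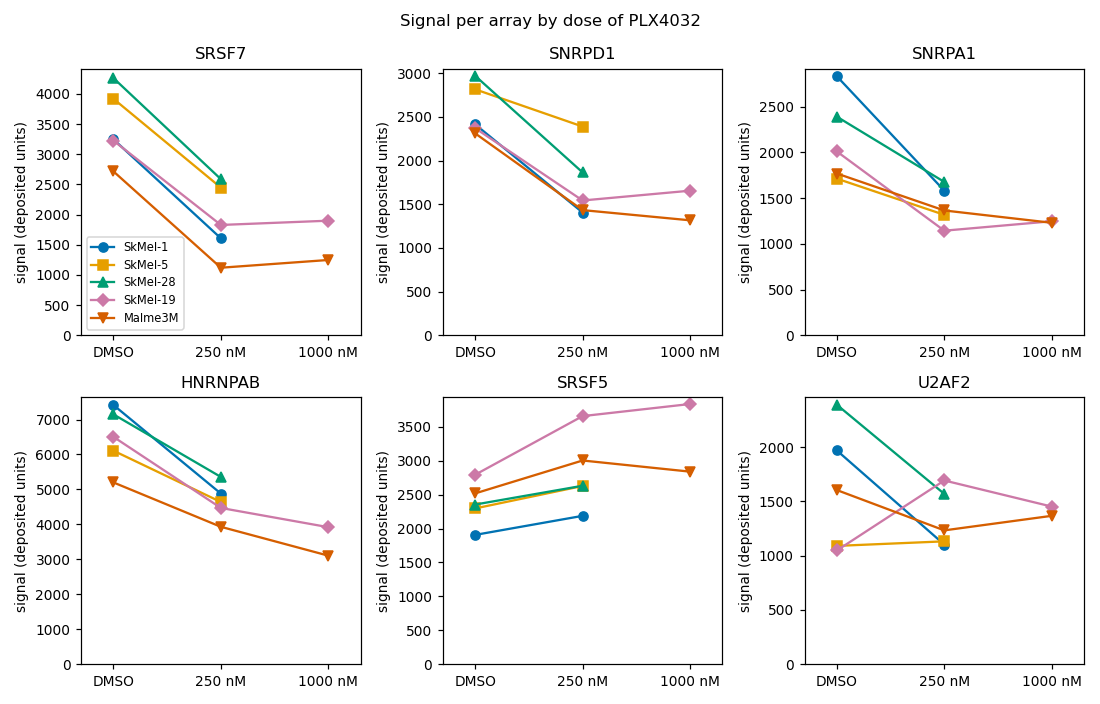
Signal of SRSF7, SNRPD1, SNRPA1, HNRNPAB, SRSF5 and U2AF2 on each array (linear axis from 0, deposited units), with 1 line and marker per cell line and doses from DMSO to 250 nM and, in SkMel-19 and Malme3M, 1000 nM. SRSF7, SNRPD1, SNRPA1 and HNRNPAB were lower at 250 nM in all 5 lines and SRSF5 was higher in all 5, while U2AF2 was higher in SkMel-19 and lower in SkMel-1, SkMel-28 and Malme3M.

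The lines differed in how far the group moved. At 250 nM 48 of 68 genes were below their DMSO value in Malme3M, 53 in SkMel-1, 37 in SkMel-5, 52 in SkMel-19 and 41 in SkMel-28. These were 70.6%, 77.9%, 54.4%, 76.5% and 60.3% of the group, beside 44.1%, 47.6%, 48.3%, 46.1% and 45.9% of all genes tested, so the group was nearest to all genes in SkMel-5. The group's median log2 change was -0.14, -0.17, -0.06, -0.19 and -0.09 in the same order, while the median of all genes tested lay between 0.01 and 0.05. In SkMel-5, 1 gene, SRSF7, fell by 0.5 or more on the log2 scale, whereas 12 did in SkMel-1, 7 in SkMel-28, 8 in SkMel-19 and 8 in Malme3M. Falls of that size were seen in 7.58% of all genes tested in SkMel-5, 12.1% in SkMel-1, 8.36% in SkMel-28, 8.58% in SkMel-19 and 11.1% in Malme3M. The group's shares were 1.47%, 17.6%, 10.3%, 11.8% and 11.8% in that order, close to all genes in Malme3M and below them in SkMel-5. SkMel-5 also had the smallest median change of the ERK output genes (-2.01). With 1 array per line and dose, the difference between lines was not tested.

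Other probe sets of the same genes gave a second reading. There were 62 of them above the filter, for 37 genes of the group. Of the 18 genes that fell or rose, 8 had another probe set. For these, 12 of 13 other probe sets had the sign of the probe set used, and 8 passed by themselves (limma, adjusted over 10745 probe sets). HNRNPF, HNRNPAB, SNRPB2, U2AF1, SF3B4, PRPF19, PRPF38B, PRPF3, SNRPG and LSM7 had no other probe set above the filter and so no second reading. The other probe sets of SRSF7 changed by -0.75 (limma adjusted p = 0.00203) and -0.52 (0.00383), both smaller in size than the -0.90 given above. The probe sets used for SRSF7 and SF3B4 are of a kind whose probes can match more than 1 gene. In all, 9 genes tested had such a probe set, HNRNPA1, HNRNPC, HNRNPU, SRSF1 and SF3B1 among those that did not pass. The other probe sets of HNRNPA1, which are not of that kind, changed by -0.20 and -0.27 without passing. The second probe set of SRSF5 changed by 0.27 (limma adjusted p = 0.0253), that of SNRPD1 by -0.54 (0.00627) and that of PRPF4 by -0.39 (0.0259). For HNRNPD, 3 of its other probe sets were lower by between 0.20 and 0.29 without passing and 1 was higher by 0.38, also without passing. HNRNPD no longer passed with the mean of all its probe sets, as is given with the alternative settings.

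Genes that did not pass on the probe set used had 49 others, of which 42 had the same sign and 4 passed. The 4 were probe sets of SRSF1 (-0.29, limma adjusted p = 0.0125), SRSF3 (-0.29, 0.0316), HNRNPU (-0.28, 0.0457) and LSM5 (-0.46, 0.0348). Each lay below 0, on the same side as the probe set used. For SRSF1, SRSF3, HNRNPU and LSM5 the outcome of the test differed between probe sets of the gene, while the direction did not.

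**Figure D3:**
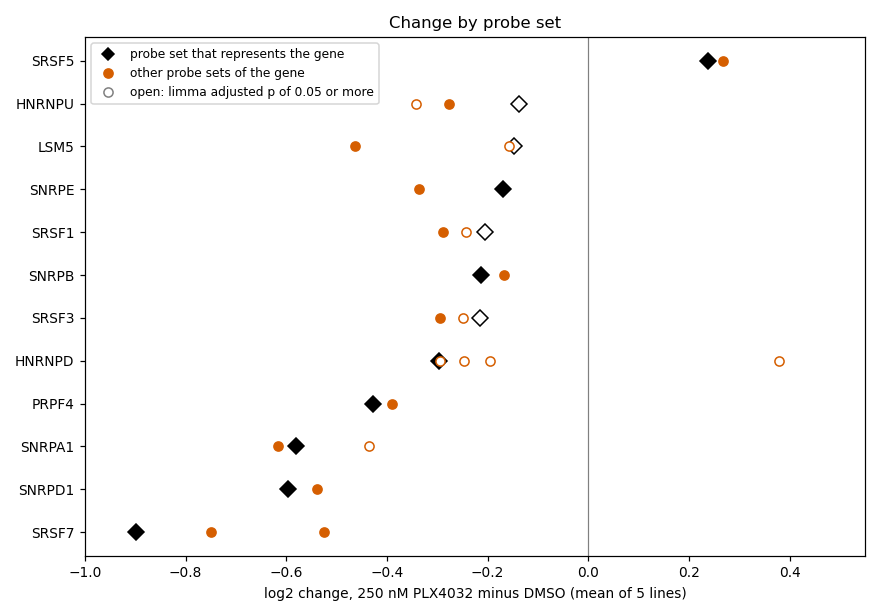
Log2 change at 250 nM PLX4032 against DMSO (mean of 5 lines) for genes of the group with more than 1 probe set in which either passed, with black diamonds for the probe set used and orange circles for the others, filled where the limma adjusted p was under 0.05. Only 1 circle, of HNRNPD at 0.38, lies on the other side of 0 from its diamond.

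Other genes of the splicing machinery were listed by role outside the symbol rule. Of 127 such genes tested, 20 fell and 8 rose at 250 nM, beside the 13.1% and 15.2% of all genes tested. The same shares of all genes stand beside the counts of each list at 250 nM given below. The list of snRNP assembly and import had 6 falls and 0 rises among 18 genes and a median log2 change of -0.17, against 0.03 for all genes tested. At 1000 nM 7 of the 127 genes were lower and 3 higher past the threshold, beside 5.89% and 5.29% of all genes tested, and the assembly and import list had 0 in either direction, with a median of -0.16 (limma, 6 of 18 at an unadjusted p under 0.05). PRMT5, the methyltransferase that modifies Sm proteins before they are loaded onto snRNA, changed by -0.50 (SE 0.08, limma adjusted p = 0.00234). GEMIN6 and GEMIN4, parts of the SMN complex that does the loading, changed by -0.67 (SE 0.13, limma adjusted p = 0.00646) and -0.44 (SE 0.12, limma adjusted p = 0.0253). PRMT7, a methyltransferase also linked to Sm proteins, changed by -0.69 (SE 0.18, limma adjusted p = 0.0211), and WDR77, the partner of PRMT5, by -0.29 (SE 0.07, limma adjusted p = 0.0197). The remaining fall was that of NCBP2 (log2 fold change -0.32, SE 0.08, limma adjusted p = 0.0196). PRMT5, WDR77, GEMIN6, GEMIN4, PRMT7 and NCBP2 were each lower in all 5 lines. GEMIN2, STRAP and CLNS1A of the same list did not pass. They changed by -0.02 (limma adjusted p = 0.857), -0.10 (0.209) and -0.16 (0.194).

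The kinases that phosphorylate SR proteins, and their partners, moved in both directions, with 3 falls and 2 rises among 10 genes and a median of 0.08. SRPK1, an SR protein kinase, fell (log2 fold change -0.40, SE 0.09, limma adjusted p = 0.0119), whereas SRPK2, its relative, rose (log2 fold change 0.44, SE 0.09, limma adjusted p = 0.00762). CLK1, a nuclear kinase of SR proteins, rose (log2 fold change 0.43, SE 0.10, limma adjusted p = 0.0166), and DYRK2, a related kinase, fell (log2 fold change -0.89, SE 0.12, limma adjusted p = 0.00137). Each of these 4 changes had the same direction in all 5 lines.

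Regulators of splice site choice had 5 falls and 5 rises among 43 genes, with a median of 0.01. ESRP1, an epithelial splicing regulator, had the largest change (log2 fold change 1.16, SE 0.16, limma adjusted p = 0.00159). TIA1, which supports weak 5′ splice sites, rose as well (log2 fold change 0.39, SE 0.10, limma adjusted p = 0.0208), while RNPS1, an activator that also joins the exon junction complex, and CELF1 changed by -0.34 (SE 0.06, limma adjusted p = 0.00564) and -0.33 (SE 0.07, limma adjusted p = 0.0075). The other snRNP proteins had 3 falls and 0 rises among 19 genes, with a median of -0.05, among them the helicase DHX15 that takes spliceosomes apart (log2 fold change -0.36, SE 0.06, limma adjusted p = 0.00309). The Prp19 complex and catalytic-step list had 1 fall, SYNCRIP (hnRNP Q, log2 fold change -0.51, SE 0.10, limma adjusted p = 0.00627), and 1 rise, SYF2 (log2 fold change 0.52, SE 0.17, limma adjusted p = 0.0473), among 22 genes. The exon junction complex and nonsense-mediated decay list had 2 falls and 0 rises among 15 genes, those of NXT1 (log2 fold change -0.75, SE 0.10, limma adjusted p = 0.00105), a partner of the mRNA exporter, and SMG9 (log2 fold change -0.30, SE 0.10, limma adjusted p = 0.0437).

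At 1000 nM, in SkMel-19 and Malme3M, 9 of 68 genes passed against DMSO, 8 lower and 1 higher, beside 11.2% of all genes tested (5.89% lower and 5.29% higher). The median of the group was -0.13 on the log2 scale, against 0.04 for all genes tested, and 50 of 68 values (73.5%) lay below 0, beside 44.7% of all genes tested. At 250 nM in the same 2 lines 8 genes passed, all of them lower, beside 11.3% of all genes tested (5.36% lower and 5.98% higher). There 48 of 68 values (70.6%) lay below 0, beside 43.9%. The 8 genes that passed at 250 nM in these lines were SRSF7, SNRPB2, SNRPD1, SNRPA1, HNRNPF, PRPF4, HNRNPAB and SRSF1. SRSF1, which had not passed over 5 lines, changed by -0.39 in this fit (SE 0.09, limma adjusted p = 0.0422). Both comparisons use the same DMSO arrays, so the values are set side by side only.

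SRSF7 had 3226, 1828 and 1899 in SkMel-19 with DMSO, 250 nM and 1000 nM, and 2716, 1119 and 1248 in Malme3M. Its log2 change at 1000 nM was -0.94 (SE 0.13, limma adjusted p = 0.0123), and at 250 nM in these lines it was -1.04 (SE 0.13, limma adjusted p = 0.0111). HNRNPAB had 6505, 4469.9 and 3919.5 in SkMel-19 and 5200.3, 3930.2 and 3104 in Malme3M at the same doses. Its signal was lower at each higher dose in both lines, with a change of -0.74 (SE 0.07, limma adjusted p = 0.00586) at 1000 nM and of -0.47 (SE 0.07, limma adjusted p = 0.0163) at 250 nM.

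The other falls at 1000 nM were those of SNRPB2 at -0.71 (SE 0.14), SNRPD1 at -0.66 (SE 0.11), SNRPA1 at -0.60 (SE 0.13), HNRNPF at -0.59 (SE 0.12), PRPF4 at -0.57 (SE 0.12) and SNRPG at -0.44 (SE 0.08), on the log2 scale. All 6 had also fallen at 250 nM over 5 lines. LSM8, which had not passed there, was the gene that rose. It had 1039, 1206 and 1468 in SkMel-19 and 2119.7, 2332 and 2698 in Malme3M, from DMSO to 1000 nM (at 1000 nM log2 fold change 0.42, SE 0.09, limma adjusted p = 0.0419).

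When either SkMel-19 or Malme3M was left out, in a fit that also held the arrays of the other lines, HNRNPAB was the 1 gene of the group that passed at 1000 nM. Of all genes tested, 1.59% passed without SkMel-19 and 0.641% without Malme3M. The core factors followed at every dose did not pass at 1000 nM. On the log2 scale SRSF1 changed by -0.22, SRSF3 by -0.39 and SNRPB by -0.19. Among the hnRNPs HNRNPA1 changed by -0.08, HNRNPA2B1 by -0.17, HNRNPC by 0.19 and HNRNPK by -0.04. Among the factors that define the 3′ splice site and branch point, SF3B1 changed by 0.20, U2AF1 by -0.39 and U2AF2 by 0.12, while PRPF8 changed by 0.16.

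**Figure D4:**
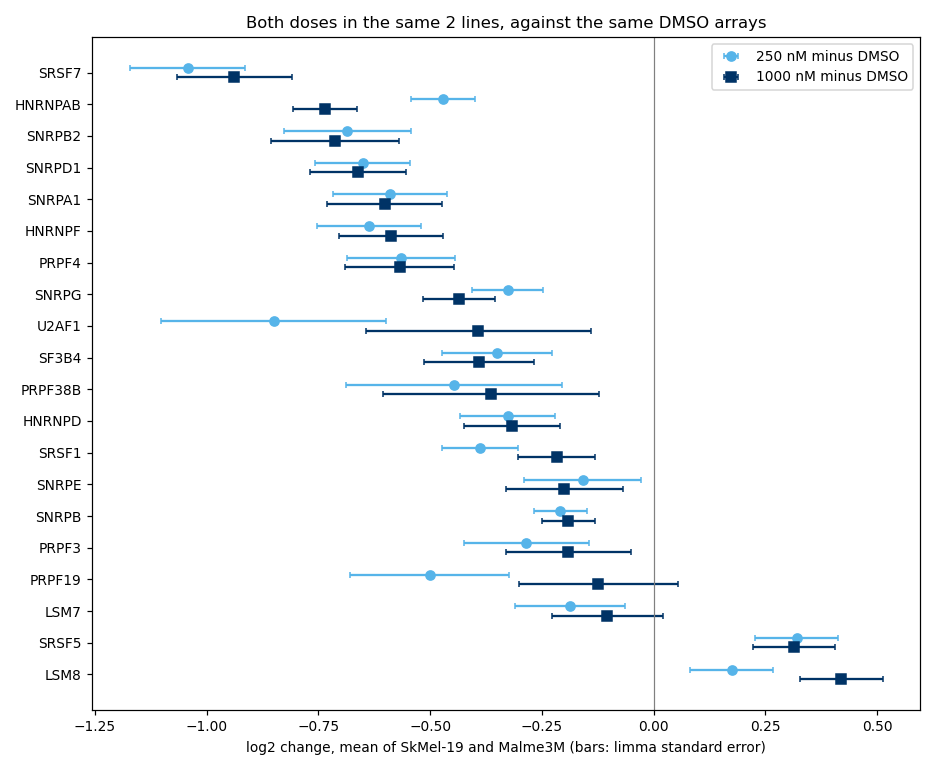
Log2 change against DMSO in SkMel-19 and Malme3M (mean of 2 lines, bars are limma standard errors) at 250 nM (light circles) and 1000 nM (dark squares) for each gene of the group that passed in any comparison with DMSO. The values of SRSF7, SNRPB2, SNRPD1, SNRPA1, HNRNPF and PRPF4 at 1000 nM lie within 1 standard error of those at 250 nM, and HNRNPAB lies further from 0 at 1000 nM.

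Between the doses, 1000 nM against 250 nM, 0 of 68 genes and 0 of 7178 genes passed in limma (0% of all genes tested), and 2 of the group and 75 of all genes had an unadjusted p under 0.05. Values at 1000 nM were below those at 250 nM for 38 of 68 genes (55.9%), beside 56.2% of all genes tested. The 5 genes of the group with the smallest p were HNRNPAB (log2 fold change -0.26, SE 0.07), LSM8 (0.25), PRPF39 (-0.33), PRPF19 (0.38) and SRSF1 (0.17). All had a limma adjusted p of 0.999. With 2 lines, missing the threshold does not show that the doses act alike.

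U2AF1 and PRPF19 fell at 250 nM over 5 lines. In SkMel-19 and Malme3M, U2AF1 changed by -0.85 at 250 nM and -0.39 at 1000 nM, and PRPF19 by -0.50 and -0.12. None of these means over 2 lines passed. The smaller change at 1000 nM was not shared by both lines. U2AF1 in Malme3M changed by -0.38 at 250 nM and -0.46 at 1000 nM, and PRPF19 in SkMel-19 by -0.26 and -0.25. U2AF1 had 4171, 1657 and 3321 in SkMel-19 and 2222, 1710.1 and 1616 in Malme3M with DMSO, 250 nM and 1000 nM. PRPF19 had 2685, 2241 and 2257 in SkMel-19 and 899.8, 533 and 901 in Malme3M at the same doses. Its values at both doses were below DMSO in SkMel-19, while in Malme3M the value at 250 nM alone was. The difference between the doses did not pass for either gene.

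Without drug, the lines differed in several genes of the group. Among the 68 genes tested, the 6 with the widest spread over the 5 DMSO arrays were PRPF4, HNRNPA3, PRPF19, SF3A3, SNRPB2 and SRSF11, with log2 ranges of 1.99, 1.81, 1.56, 1.49, 1.41 and 1.39 between the lowest and the highest line. With 1 DMSO array per line these are descriptions, with no test. PRPF4 was lowest in SkMel-1 (440.1) and highest in SkMel-5 (1779), with the other lines between 914 and 1157. PRPF19 was lowest in Malme3M (899.8) and highest in SkMel-19 (2685).

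HNRNPA3, a relative of hnRNP A1, stood at 565 in SkMel-5 with DMSO and at 1560.4 to 2009.7 in the other lines. SRSF11, an SR-related protein, stood at 3978 in SkMel-28 and at 1509 to 1842 in the others. SF3A3, a subunit of SF3A, was lowest in SkMel-1 (543) and highest in SkMel-19 (1551), and SNRPB2 was lowest in SkMel-1 (3119.6) and highest in SkMel-28 (8337). At 250 nM the low HNRNPA3 of SkMel-5 (508) and the high SRSF11 of SkMel-28 (4212) were seen again. These levels are of 1 probe set each and are compared between lines only, not between genes.

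**Figure D5:**
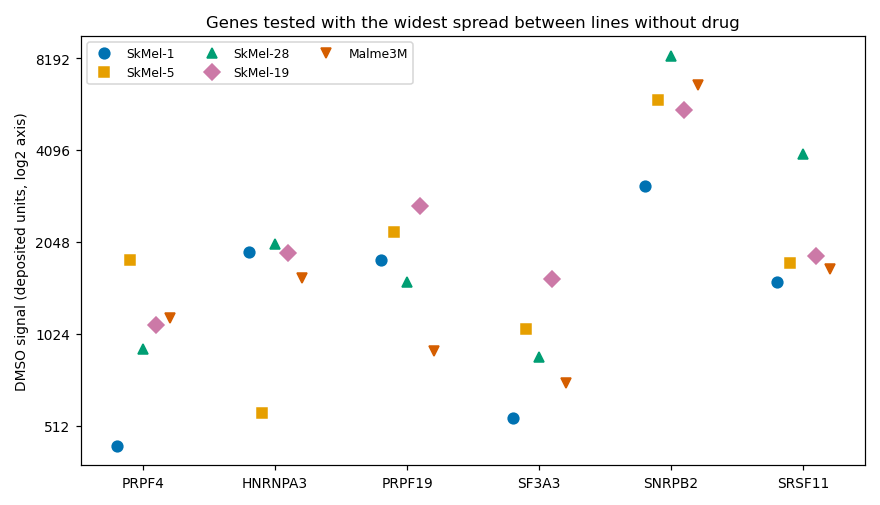
DMSO signal of the 6 genes with the widest spread between lines among the 68 tested (log2 axis, deposited units), with 1 marker per cell line. HNRNPA3 is low in SkMel-5 alone, SRSF11 is high in SkMel-28 alone, and SkMel-1 has the lowest PRPF4, SF3A3 and SNRPB2.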

How the data were processed

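The authors deposited a linear intensity for each of 22277 probe sets on each of the 12 arrays. The values came from the program GCOS, per the submitters' processing notes, with its version not stated. The probe summary method is not named in those notes. The mean without the lowest and highest 2% of values was 500.1 on every array as deposited, so no further scaling was applied. The number of arrays limits the precision.

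After removal of 62 control probe sets, 19064 of the other 22215 had 1 gene symbol, 1043 had several and 2108 had none. A total of 19052 were matched by Entrez ID to RefSeq with 0 symbols changed. The brightest probe set stood for a gene. Values were taken as log2(value + 12), where 12 is the 20th percentile of values, and the 7178 genes at or over the 40th percentile (log2 6.61, signal 85.7) were tested. Fold changes are on that scale and understate those of dim genes.

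Changes were tested with limma 3.58.1 in R 4.3.3, with a trended prior variance, a block for the cell line, Benjamini-Hochberg adjustment over all genes tested and a threshold of 0.05. For 250 nM there were 10 arrays and 4 residual degrees of freedom, and for 1000 nM the 6 arrays of SkMel-19 and Malme3M and 2. Pairing rests on the line named in the labels. With group means subtracted, same-line arrays had correlations of 0.898 to 0.931, and arrays of different lines of no more than -0.135. The steps were tested on simulated data. Plots were made in Python 3.11.15 with matplotlib 3.10.9.

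The genes, the lists outside the symbol rule, the promoter motifs and the tests were chosen with earlier results of these data known. At 250 nM the text names the 12 deepest falls and 12 highest rises among genes that passed and moved alike in all 5 lines, up to 3 more per family that passed, and a set of core factors (SRSF1, SRSF2, SRSF3, HNRNPA1, HNRNPA2B1, HNRNPC, HNRNPK, SF3B1, U2AF1, U2AF2, PRPF8 and SNRPB). At 1000 nM it names the 5 deepest falls and highest rises that passed and the same core factors. Between doses it names the 5 with the smallest p, at baseline the 6 widest ranges, and in each list up to 4 that passed or, where none did, the 2 with the smallest p. Other genes named to complete a family or list, and HNRNPF, PRPF4 and SNRPG at 1000 nM, were chosen after their values were seen.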

Additional observations from a re-analysis of the deposited data

Results flagged for a closer look

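For the 32 genes of the group that were named, 96 sets of 5 values were examined for a line far from the others. Chance alone marks about 1 in 20 such sets where they are independent and not chosen for their spread, and 3 were marked here. All 3 belong to HNRNPA3 and SRSF11, which were named for their wide range over the DMSO arrays. The rate therefore does not apply to them. HNRNPA3 in SkMel-5 had a log2 signal of 9.02 at 250 nM, where the other lines lay between 10.59 and 11.09, and of 9.17 with DMSO, where the others lay between 10.62 and 10.98. SRSF11 in SkMel-28 had a log2 signal of 11.96 with DMSO, where the others lay between 10.57 and 10.86.

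U2AF2 moved in opposite directions in the lines that received both doses. In SkMel-19 it was higher than DMSO at 250 nM and at 1000 nM (log2 change 0.69 and 0.47), and in Malme3M it was lower at both doses (-0.38 and -0.23). The lines differed by 1.06 at 250 nM. Each value rests on 1 array per line and dose, and the difference was not tested.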

How the results depend on the processing

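At 250 nM, 18 of 68 genes of the group and 2029 of all genes passed, and the group's count stayed within 1.5 times of this under other pseudocounts, filters, scalings, a prior variance without a trend, the mean of all probe sets and a fit of all 12 arrays (14 to 22). Without probe sets that can match several transcripts, 10 of the 40 genes of the group still tested and 1158 of all genes passed. Without cell line as a block, 0 and 13 did in limma (6 and 420 at an unadjusted p under 0.05). Leaving out 1 line at a time gave 11 to 21 genes of the group and 1288 to 1836 of all genes. None of the 18 passed without the block, and 8 passed in every setting with the block in which they were tested. LSM7 missed the threshold in 9 of those, SNRPE in 7, SNRPG in 6, PRPF38B in 5, PRPF3 and U2AF1 in 3, and PRPF19, SNRPB, SRSF5 and HNRNPD in 2. HNRNPD did so with the mean of its probe sets and without probe sets that can match several transcripts.

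At 1000 nM the count of 9 (beside 11.2% of all genes) was 4 with no filter (3.72%), 3 with a prior variance without a trend (7.38%, chosen after seeing the data), 0 without the block (7 at an unadjusted p under 0.05; 0% of all genes), and 1 without SkMel-19 (1.59%) or without Malme3M (0.641%). For 250 nM in SkMel-19 and Malme3M the count of 8 (11.3%) was 4 with no filter (3.59%), 3 without a trend (7.79%) and 0 without the block (5 at an unadjusted p under 0.05). Between the doses it was 0 in every setting.

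A change of sign occurred for 16 values of named genes, of which 0 passed in either fit. HNRNPA1 at 250 nM was -0.0078 with arrays centred on their median, -0.154 with the mean of all probe sets and -0.205 without probe sets that can match several transcripts. With 1 line left out it ran from -0.0397 to 0.0835. At 1000 nM HNRNPK was 0.0072 and U2AF2 -0.0658 in the fit of all 12 arrays. Without SkMel-19 and without Malme3M, values at 1000 nM were -0.367 and 0.0555 for HNRNPA2B1, -0.0774 and 0.283 for HNRNPC, -0.113 and 0.150 for HNRNPK, -0.475 and 0.0099 for U2AF1, -0.260 and 0.0367 for U2AF2, and 0.183 and -0.0522 for PRPF8. Between the doses SRSF1 was -0.0308 with the mean of all probe sets, -0.0180 without SkMel-19 and 0.133 without Malme3M. Apart from the settings built on fewer lines, genes or probe sets, the cause was not tested. No gene of the group that was tested had an array under the filter.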
